A study of Chlamydomonas reinhardtii with 90 samples.

Results

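A group of 180 genes of *Chlamydomonas reinhardtii* was at a brief transcript peak just after cultures held for 24 h at 40°C had been cooled to 25°C. They were selected on measured values, out of 15541 genes tested, by one rule on log2 CPM (read counts brought to a common library size with edgeR's TMM factors, with a prior count of 2). The mean of the 3 libraries at recovery 0 h, immediately after cooling, had to lie at least 2.5 above the mean at heat 24 h and at least 2.5 above the mean at recovery 2 h. The 40°C libraries at these 3 time points therefore chose the genes, and their values there are given as a description, without a test. All 180 passed the filter of 10 reads or more in 9 or more of the 90 libraries, since the rule required it.

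The libraries are polyA RNA-seq of the wild-type strain CC-1690 (21gr, mt+), grown in acetate-containing TAP medium in photobioreactors under constant light and held at a steady density by dilution. Cultures at 25°C were shifted to 40°C or, in other bioreactors, to 35°C for 24 h and then returned to 25°C for 48 h. The groups used here are heat 0 h (temperature just reached), 0.5 h, 16 h and 24 h, recovery 0 h, 2 h, 4 h and 8 h, and pre-heat, each with 3 biological replicates named A, B and C. The protocol calls them biological replicates but does not say whether a letter is a bioreactor of its own, so p-values measure the spread between these samples. Each treatment has its own pre-heat libraries, and no time-matched culture kept at 25°C enters these comparisons.

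Chlamydomonas is a single-celled green alga that swims with a pair of flagella and steers by light through an eyespot. Heat above the range in which it grows well slows or stops much of its normal growth programme while chaperones and other protective proteins are made, and a return to a mild temperature lets growth, division and motility resume. A drop of temperature is itself a change of conditions to which cells respond with new transcription. Transcript levels are measured over the whole culture, so a change in the make-up of the culture and a change of RNA within each cell cannot be told apart.

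Libraries held 10872030 to 35917831 counted reads. The 9 libraries that chose the members had 18365343 to 34758352. TMM factors were 0.88 to 0.937 at 40°C recovery 0 h, 1.105 to 1.227 at heat 24 h and 1.302 to 1.423 at recovery 2 h, so part of each step rests on this scaling. Over all genes the median step from heat 24 h to recovery 0 h was -0.05 with TMM and -0.39 with library size alone, and that from recovery 0 h to recovery 2 h was -0.12 and 0.46. With library size alone the rule chose 92 genes, all of them among the 180.

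Over the members, the rise from heat 24 h to recovery 0 h was 2.5 to 5.80 on the log2 scale, with a median of 3.11, against a median of -0.05 over all genes tested. The drop to recovery 2 h was 2.51 to 6.26, with a median of 3.51. A rise of 2.5 or more was reached by 366 genes, and 186 of these did not fall by that size within 2 h. The members closest to the threshold were Cre16.g659250 (smaller step 2.501), Cre02.g104450 (2.507) and Cre12.g505050 (2.509). The nearest gene left out, Cre02.g143400, had 2.498.

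Levels at the peak ranged widely. Mean TPM (a gene's reads divided by its length and scaled to the same total in each library) had a median over the members of 0.816 at the end of heat, 7.40 on cooling and 1.16 after 2 h of recovery. Over all genes the median was 3.196, 2.766 and 5.609 TPM at these points. At 35°C it was 2.507, 2.225 and 4.186 TPM. TPM holds no TMM factors, so TPM at recovery 2 h reads high beside the other points. In log2 CPM the members were lower at 40°C recovery 2 h than at heat 24 h, with medians of -2.52 and -2.11 against pre-heat. At recovery 0 h 80 members had a mean of 10 TPM or more, 79 had 1 to 10, and 21 stayed under 1 TPM. Together the members took 0.295 to 0.519% of all TPM at 40°C recovery 0 h, against 0.0439 to 0.0586% at heat 24 h. The mean read count behind a member at recovery 0 h was 31.7 to 28981, with a median of 763.8, and at recovery 2 h the lowest was 0.3 reads. Folds of the weakest members at recovery 2 h are therefore set in part by the prior count.

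The 3 replicates differed in the size of the peak. Replicate C was the highest of the 3 libraries in 126 members at 40°C recovery 0 h, and replicate B was the lowest in 140. At recovery 2 h replicate B was the highest in 116. The median SD between replicates over the members was 0.61 log2 units at recovery 0 h and 0.51 at recovery 2 h, against 0.3 and 0.23 over all genes. Without replicate B of recovery 0 h the rule chose 262 genes, and without replicate C 141.

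The time course of the members had more than one turn. Set against pre-heat, their median log2 CPM in the 40°C cultures was 0.13 once heat was reached, 0.06 after 2 h of it, -0.87 after 4 h, -2.31 after 16 h and -2.11 after 24 h. On cooling it stood at 1.08, then -2.52 after 2 h of recovery, -1.48 after 4 h, -0.03 after 8 h and 0.03 after 24 h. The median of all genes stayed between -0.04 and 0.06 throughout. The step down on either side of the peak was required by the rule. The median was back near its level before heat at 8 h, but single members did not all follow it. At recovery 2 h 133 members were at least 1 log2 unit below pre-heat and 25 at least 1 above.

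**Figure D1:**
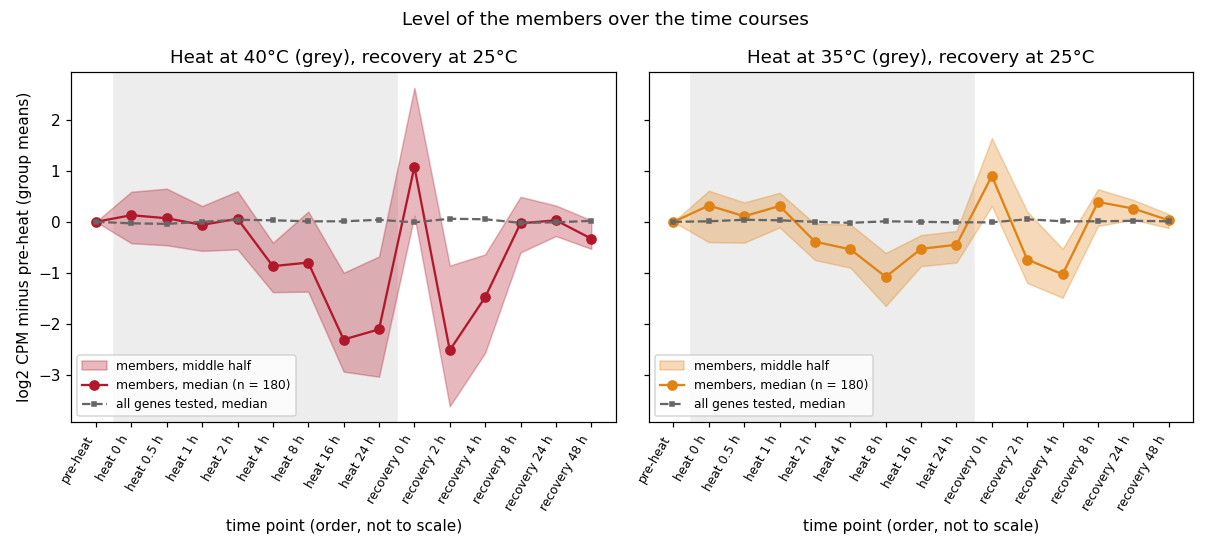
Median log2 CPM of the 180 members minus the pre-heat mean at each of 15 time points (x axis, in order and not to scale), for 40°C on the left and 35°C on the right, with the band from the lower to the upper quartile of the members and the dashed line giving the median of all 15541 genes tested. The member medians at recovery 0 h are 1.08 at 40°C and 0.9 at 35°C, between -2.11 and -2.52 at the neighbouring 40°C time points and between -0.45 and -0.74 at the neighbouring 35°C ones.

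The peak did not mean the same level in each gene. At 40°C recovery 0 h 94 members were at least 1 log2 unit above pre-heat, 78 were within 1 unit of it, and 8 were at least 1 below. At heat 24 h 131 members were at least 1 below pre-heat and 27 at least 1 above. For 71 members another 40°C time point had a higher mean than recovery 0 h, most often heat 2 h (27 members) or heat 0 h (17).

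The member with the largest smaller step was Cre10.g435750, which has no name in the tables used. Its TPM in replicates A, B and C was 0.882, 0.0562 and 0.171 at 40°C heat 24 h, 11.2, 5.58 and 18.7 at recovery 0 h and 0.0982, 2.46 and 0.135 at recovery 2 h. All 3 libraries of recovery 0 h stood above the others, and replicate B alone was still above 1 TPM after 2 h. Cre03.g173100, also without a name, had 5.10, 0.194 and 1.11 TPM at heat 24 h, 49.2, 14.2 and 57.6 TPM at recovery 0 h and 0.254, 6.37 and 0.438 TPM at recovery 2 h. Here too replicate B peaked lowest and fell least.

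The most abundant of the 12 members with the largest smaller steps was Cre12.g536100. It had 28.0, 15.5 and 18.6 TPM at 40°C heat 24 h, 299, 143 and 621 TPM at recovery 0 h and 22.2, 28.8 and 19.6 TPM at recovery 2 h, against 97.8, 117 and 97.4 TPM at pre-heat. The libraries of recovery 0 h do not overlap with any of these groups, although replicate B came close to pre-heat. Cre03.g200950 behaved alike at a lower level, with 37.7, 12.4 and 61.5 TPM at recovery 0 h, against 12.2, 14.2 and 12.97 TPM at pre-heat, where replicate B lay within the pre-heat range. Cre02.g095080, whose protein has a domain of the SPFH family (which includes stomatins and prohibitins), had 1.08, 0.487 and 0.408 TPM at heat 24 h, 35.3, 24.6 and 28.9 TPM at recovery 0 h and 6.60, 2.36 and 2.16 TPM at recovery 2 h. In TPM it was still above its pre-heat level of 1.20, 1.17 and 0.981 after 2 h in every library. With TMM factors its mean log2 CPM at recovery 2 h was only 0.51 above pre-heat, a difference that was not tested.

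The other 7 of these 12 had the following levels. Cre09.g389838 reached 9.33 to 17.9 TPM at 40°C recovery 0 h and Cre02.g079650 4.83 to 9.99 TPM. Cre09.g387912, Cre02.g116700 and Cre07.g315850 each reached between 3.27 and 7.90 TPM there. Cre17.g740050 reached 1.07 to 4.59 TPM, and Cre02.g095151, annotated as an ABC transporter, stayed at 0.321 to 0.851 TPM.

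**Figure D2:**
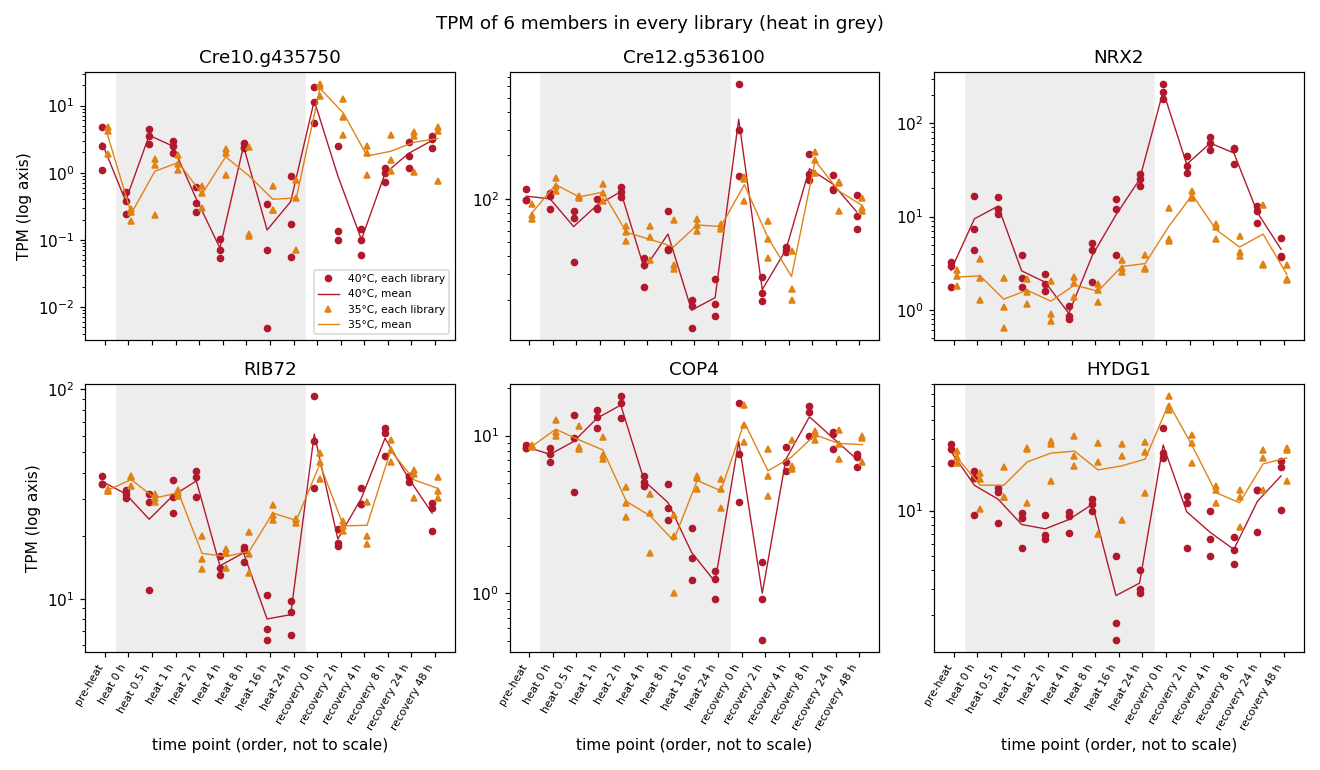
TPM (log axis) of 6 members at each of 15 time points (x axis, in order and not to scale) in every library, with circles for 40°C, triangles for 35°C and lines through the means. At 40°C recovery 0 h NRX2 stands far above every other time point (182 to 263 TPM), while COP4 (3.81 to 16.1 TPM) returns to about its pre-heat level of 8.31 to 8.75 TPM.

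Few members carry a name. Of the 180, 34 appear in the annotation tables and 20 have a gene symbol, against 4797 and 1947 of the 15541 genes tested. What follows by function therefore covers a small part of the group.

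Flagellar genes made up the largest set with a shared annotation. Flagella are built on a ring of doublet microtubules, and their protein inventory was named from isolated flagella as flagellar-associated proteins (FAP). A list of 142 tested genes with a motility annotation or a flagellar symbol held 12 members: FAP68, FAP89, FAP210, FAP241, FAP252, RIB72, MST1, RWP5, Cre02.g113400, Cre09.g394251, Cre12.g495250 and Cre17.g723600. The list was put together after values had been seen, and it counts toward no test. RWP5 is in it through a term for flagellar adhesion and gamete fusion, and the 4 without a symbol through motility terms. Members made up 8.45% of it, against 1.16% of all genes tested. Of the whole list 45.1% had a peak of at least 1 log2 unit on both sides at 40°C recovery 0 h, against 9.99% of all genes. Both shares rest on the 40°C values that the rule used, so they only describe the list. It takes in only genes found in the annotation tables and may miss other flagellar genes.

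RIB72 (Cre02.g091700), a protein of the inner face of the doublet microtubules, had 9.80, 8.69 and 6.71 TPM at 40°C heat 24 h, 56.9, 33.7 and 92.7 TPM at recovery 0 h and 17.9, 21.6 and 18.4 TPM at recovery 2 h. Before heat it had 35.5, 38.4 and 35.2 TPM, so replicate B returned to just under that level and replicates A and C went past it. MST1 (Cre16.g650600), a protein of the mastigonemes (the fine hairs on the flagellar surface), had 5.77, 8.67 and 5.39 TPM at heat 24 h, 32.1, 19.9 and 64.8 TPM at recovery 0 h and 4.82, 12.3 and 10.0 TPM at recovery 2 h. Its 3 peak libraries all stayed below the pre-heat libraries, which had 75.6, 72.8 and 77.1 TPM. FAP252 (Cre10.g466650) had 4.72, 4.71 and 2.48 TPM at heat 24 h, 29.5, 11.7 and 52.8 TPM at recovery 0 h and 1.63, 3.32 and 2.40 TPM at recovery 2 h. Its pre-heat libraries had 36.3 to 40.2 TPM, which the peak libraries straddled.

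The flagellar members as a set stood near their pre-heat level at the peak, and the other members above theirs. In the 40°C cultures their median against pre-heat was -3.42 after 24 h of heat, -0.22 on cooling and -3.58 another 2 h later. The other members had -1.99, 1.22 and -2.4 at the same points. A peak near pre-heat was not particular to flagellar members. The 93 members called lower than pre-heat at 40°C heat 16 h, of which 11 are flagellar, had a median of 0.27 on cooling. The rule used the values at these points, and the sets were not tested against each other.

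COP4 (Cre02.g085257) encodes channelrhodopsin-2, a light-gated cation channel of the eyespot region that serves phototaxis. It had 1.39, 1.24 and 0.926 TPM at 40°C heat 24 h, 7.67, 3.81 and 16.1 TPM at recovery 0 h and 0.509, 1.57 and 0.921 TPM at recovery 2 h. Replicate C passed the pre-heat range of 8.31 to 8.75 TPM, and A and B did not reach it.

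A pair of nucleoredoxins, thioredoxin-like oxidoreductases that act on disulfide bonds, showed a different course. NRX2 (Cre02.g093750) had 28.3, 21.2 and 25.4 TPM at 40°C heat 24 h, 263, 216 and 182 TPM at recovery 0 h and 45.0, 29.1 and 34.8 TPM at recovery 2 h. Before heat it had 1.74, 3.23 and 2.96 TPM, so the peak came on top of a level already raised by heat and was highest in replicate A. NRX3 (Cre02.g093800), its neighbour on chromosome 2, had 13.2, 7.44 and 9.70 TPM at heat 24 h, 127, 68.3 and 56.6 TPM at recovery 0 h and 13.1, 8.32 and 11.5 TPM at recovery 2 h. Both are in the study's list of genes for scavenging reactive oxygen species, together with another member, Cre16.g663000, listed as PRX and annotated as a globin-like peroxiredoxin. PRX was weak, with 0.238, 0.0941 and 0.125 TPM at heat 24 h, 1.93, 1.29 and 1.71 TPM at recovery 0 h and 0.350, 0.251 and 0.167 TPM at recovery 2 h. Reads that fit more than one place in the genome were not counted, so any stretch that the neighbouring nucleoredoxins share is missing from both.

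These 3 were the only members in any of 11 pathway lists of the study. The list of reactive oxygen scavenging had 126 genes tested. Calvin-Benson cycle (19), carbon concentration (16), cell cycle (122), cell wall (45), large and small heat shock proteins (11 and 9), nitrogen assimilation (64), light reactions (83), pigments (45) and starch (54) had no member. The study chose the cell cycle genes on these same libraries. In the step from 35°C heat 24 h to recovery 0 h, 10 of the 126 genes of the scavenging list were called higher and 4 lower. Over all genes 4.27% were called higher and 3.04% lower. The 10 include the members PRX, NRX2 and NRX3, which the rule chose for their rise on cooling from 40°C. Their calls were all lost without replicate A of 35°C recovery 0 h. The list's median log2 fold change was 0.14, against -0.02 over all genes.

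HYDG1 (Cre06.g296700) and HCP2 (Cre09.g393543) belong to metabolism known from cells short of oxygen. HYDG1 helps to assemble the iron-iron hydrogenase, and it had 4.04, 2.83 and 2.99 TPM at 40°C heat 24 h, 22.5, 24.3 and 35.5 TPM at recovery 0 h and 5.64, 11.2 and 12.6 TPM at recovery 2 h. HCP2 is a hybrid cluster protein, an iron-sulfur redox protein, and had 3.09, 1.37 and 2.02 TPM at heat 24 h, 14.5, 6.81 and 20.03 TPM at recovery 0 h and 1.95, 2.55 and 4.35 TPM at recovery 2 h. In both, the libraries of recovery 0 h overlap with those of pre-heat, which had 20.9 to 27.7 TPM for HYDG1 and 12.9 to 15.0 TPM for HCP2.

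The remaining named members had mixed roles. CGL91 (Cre01.g015500), a protein conserved in the green lineage, had 22.2, 15.7 and 19.4 TPM at 40°C heat 24 h, 144, 95.0 and 111 TPM at recovery 0 h and 36.9, 31.1 and 42.6 TPM at recovery 2 h, and was the strongest named member after NRX2. RWP5 (Cre06.g285600), of the RWP-RK transcription factors, which in algae and plants include regulators of nitrogen use and of gametes, reached 1.19, 2.104 and 2.87 TPM at recovery 0 h. LCI35, named as inducible by low carbon dioxide, reached 2.40 to 5.18 TPM, CSV3 2.63 to 6.67 TPM and the ankyrin repeat protein ANK17 3.30 to 7.93 TPM. ARS7, of the arylsulfatases, which free sulfate from organic sulfur, and CSR6, related to carbohydrate sulfotransferases, were weak, at 1.17 to 2.15 TPM and 0.232 to 0.590 TPM. CSR6 had no read in 1 library of heat 24 h.

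The 35°C libraries were not used by the rule and allow a test of the same step in other cultures. Most members rose on cooling from 35°C as well. Of the 180, 98 were called higher at 35°C recovery 0 h than at heat 24 h and 0 lower (edgeR quasi-likelihood test, Benjamini-Hochberg adjusted p under 0.05 over all genes, an absolute log2 fold change above 1, and group mean TPM values at least 1 apart). That is 54.4% of the members, against 4.27% of all genes tested called higher and 3.04% called lower. By adjusted p alone 2663 of all 15541 genes were higher and 2650 lower. Among the members 142 were higher and 1 was lower, Cre01.g009550, a GCN5-related acetyltransferase (-0.84 ± 0.27, SE, adjusted p = 0.0126 by edgeR). By DESeq2's Wald test 99 were called higher and 0 lower. The median log2 fold change over the members was 1.34, against -0.02 over all genes.

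Of the 82 members not called, 22 passed on fold and adjusted p but missed the TPM difference, 54 were higher without passing, and 6 were not higher. Among the 186 genes that rose at 40°C cooling without the fall, 78 (41.9%) were called higher in this 35°C step, with a median of 1.26. Without replicate A of 35°C recovery 0 h, which was the highest of its group in 144 members, 77 members were called. Calls of NRX2 (Cre02.g093750) and NRX3 (Cre02.g093800), at 1.49 and 1.47 with all libraries, were lost without it, at 0.98 (adjusted p = 0.0966) and 1.04 (adjusted p = 0.0857, both by edgeR). The call of PRX (Cre16.g663000) was lost too, at 1.89 (adjusted p = 0.000287 by edgeR), since it then missed the TPM difference.

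**Figure D3:**
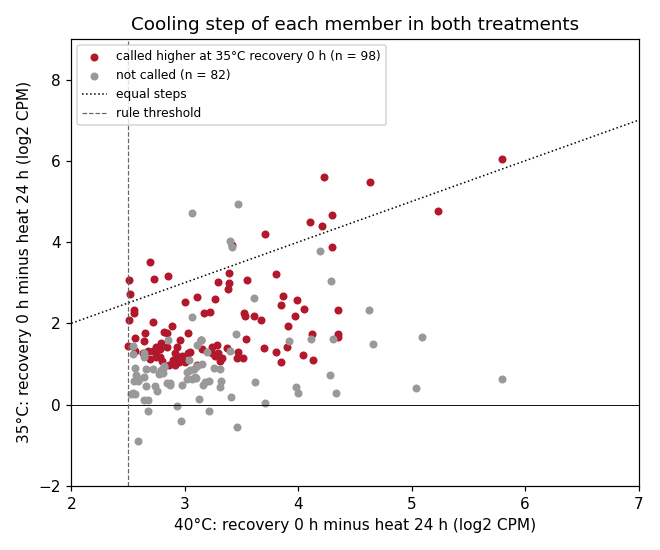
Step from heat 24 h to recovery 0 h in log2 CPM for each of the 180 members, at 40°C (x axis, used by the rule, threshold at the dashed line) and at 35°C (y axis), with red points for the 98 members called higher at 35°C and grey points for the 82 not called. Of the 180 points, 174 lie above 0 on the y axis. The dotted line marks equal steps, and the rule set the least step on the x axis, so the steps at both temperatures are not compared.

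The step size differed between genes. Cre10.g435750 had 0.765, 0.0714 and 0.420 TPM at 35°C heat 24 h, 20.9, 19.6 and 13.7 TPM at recovery 0 h and 6.85, 12.6 and 3.69 TPM at recovery 2 h. Its log2 fold change at recovery 0 h was 5.56 ± 0.87 (SE, n = 3 per group, adjusted p = 4.42e-07 by edgeR), with no overlap between the libraries. At recovery 2 h it was called lower than at recovery 0 h, and its mean log2 CPM was 2.25 lower. That call was lost without replicate C of recovery 2 h (adjusted p = 0.067 by edgeR). All 3 libraries of recovery 2 h still stood above those of heat 24 h. Cre09.g389838 had 0.465, 0.167 and 0.250 TPM at 35°C heat 24 h, 12.7, 12.9 and 8.04 TPM at recovery 0 h and 1.51, 2.09 and 1.07 TPM at recovery 2 h (5.40 ± 0.68, adjusted p = 2.11e-09 by edgeR). The largest fold change at this step was that of Cre03.g205500, with 3.13, 2.61 and 1.78 TPM at 35°C recovery 0 h, against 0.0299, 0.0244 and 0.0628 TPM at heat 24 h (6.08 ± 0.6, adjusted p = 8.45e-13 by edgeR). At 35°C this gene did not fall afterwards, with 4.73, 5.04 and 3.73 TPM at recovery 2 h.

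Named members differed in whether they took part at 35°C. HCP2 had 19.7, 15.5 and 13.2 TPM at 35°C recovery 0 h, against 2.12, 1.23 and 2.99 TPM at heat 24 h (3.09 ± 0.35, SE, adjusted p = 7.5e-11 by edgeR). RWP5 rose by 2.21 ± 0.46, COP4 by 1.60 ± 0.31, CGL91 by 1.44 ± 0.27 and HYDG1 by 1.41 ± 0.38 (SE, adjusted p 7.65e-05, 2.33e-05, 1.41e-05 and 0.00244 by edgeR). In COP4 the libraries did not overlap, with 15.6, 11.7 and 9.04 TPM at 35°C recovery 0 h, against 5.32, 3.50 and 4.60 TPM at heat 24 h.

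Of the flagellar members RIB72 (1.06 ± 0.21), FAP210 (1.07 ± 0.18) and FAP241 (1.16 ± 0.32) just passed the fold threshold at 35°C. With library size alone all 3 calls were lost, at 0.87, 0.88 and 0.97. Those of RIB72 and FAP241 were also lost without replicate A of 35°C recovery 0 h, at 0.96 and 0.99. FAP252 had 0.82, FAP68 0.59, MST1 0.48 and FAP89 0.44, and were not called. RWP5, in the list through a term for gamete fusion, was called with a larger rise (2.21 ± 0.46). Among those without a symbol, mean log2 CPM rose by 1.27 in Cre02.g113400, 0.65 in Cre09.g394251, 0.52 in Cre12.g495250 and 0.63 in Cre17.g723600. Over the 142 genes of the flagellar list 11 were called higher and 0 lower, with a median of 0.29. Over all genes 4.27% were called higher and 3.04% lower. The 11 include the members RIB72, FAP210, FAP241 and RWP5, which the rule chose for their rise on cooling from the higher temperature. The list itself was put together after values had been seen, so its counts are a description only.

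Cre02.g095080 was among the strongest at 40°C and moved little at 35°C. It had 0.547, 0.336 and 0.299 TPM at 35°C recovery 0 h, against 0.419, 0.185 and 0.256 TPM at heat 24 h (0.59 ± 0.41, SE, adjusted p = 0.27 by edgeR), and the libraries overlap. Cre07.g315850 (0.43 ± 0.31, adjusted p = 0.282 by edgeR) was alike in this. Whether the step differs between 40°C and 35°C was not tested in any member, because the rule had used the 40°C step.

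The drop after the peak was seen at 35°C as well. From 35°C recovery 0 h to recovery 2 h, 100 members were called lower and 1 higher, 55.6% and 0.556% of the members, against 7.41% and 11.2% of all genes. The median log2 fold change was -1.7, against -0.02 over all genes. The genes that rose at 40°C cooling without the fall differed here, with 34 of 186 called lower and 12 called higher and a median of -0.44. Both steps, up and then down, were called at 35°C in 78 members (43.3%), in 30 of these 186 genes (16.1%) and in 310 of all genes (1.99%). The sets were not tested against each other.

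Among members called, the largest falls at this step were those of Cre09.g389838 (-3.74 ± 0.62), Cre14.g610100 (-3.61 ± 0.41) and Cre16.g670755 (-3.53 ± 0.52, SE, adjusted p 5.47e-07, 2.23e-11 and 3.55e-08 by edgeR). Cre14.g610100 had 1.31 to 2.00 TPM at 35°C heat 24 h, 10.1 to 15.1 TPM at recovery 0 h and 1.53 to 2.34 TPM at recovery 2 h. The one member called higher was Cre11.g467601, with 5.19, 5.88 and 3.90 TPM at 35°C recovery 2 h, against 0.820, 0.347 and 0.412 TPM at recovery 0 h (2.37 ± 0.45, adjusted p = 8.48e-06 by edgeR). At 35°C it had no peak on cooling, while at 40°C it had 41.8, 40.8 and 19.5 TPM at recovery 0 h. NRX2 did not fall either, with 16.6, 18.9 and 15.7 TPM at 35°C recovery 2 h, against 12.4, 5.41 and 5.73 TPM at recovery 0 h (0.24 ± 0.42, adjusted p = 0.644 by edgeR).

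**Figure D4:**
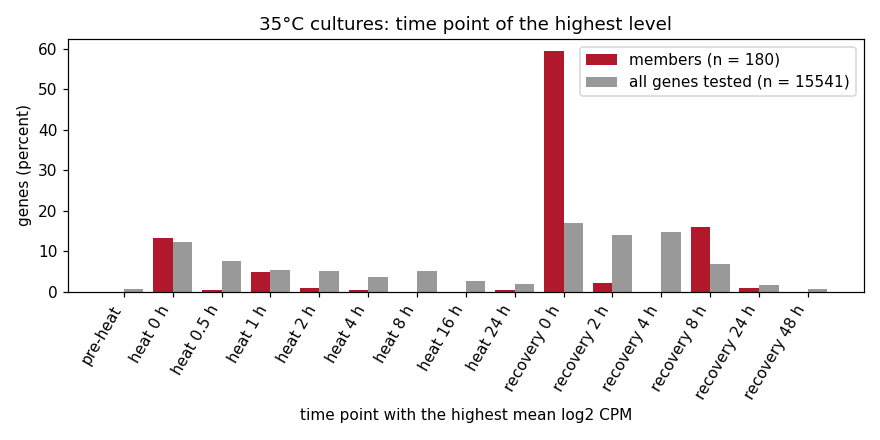
Percent of the 180 members (red) and of all 15541 genes tested (grey) whose highest mean log2 CPM in the 35°C cultures fell at each of 15 time points (x axis). Recovery 0 h holds 59.4% of the members and 16.9% of all genes.

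Recovery 0 h was the highest of all 15 time points at 35°C in 107 members (59.4%), against 2623 genes (16.9%) over all. The next most frequent were recovery 8 h (29 members, 16.1%, against 6.99% of all genes) and heat 0 h (24 members, 13.3%, against 12.4% of all genes). The rule in its full form, 2.5 on both sides, was met at 35°C by 15 members (8.33%) and by 25 genes over all (0.161%). The lowest 35°C time point was heat 8 h in 60 members and recovery 4 h in 53.

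**Figure D5:**
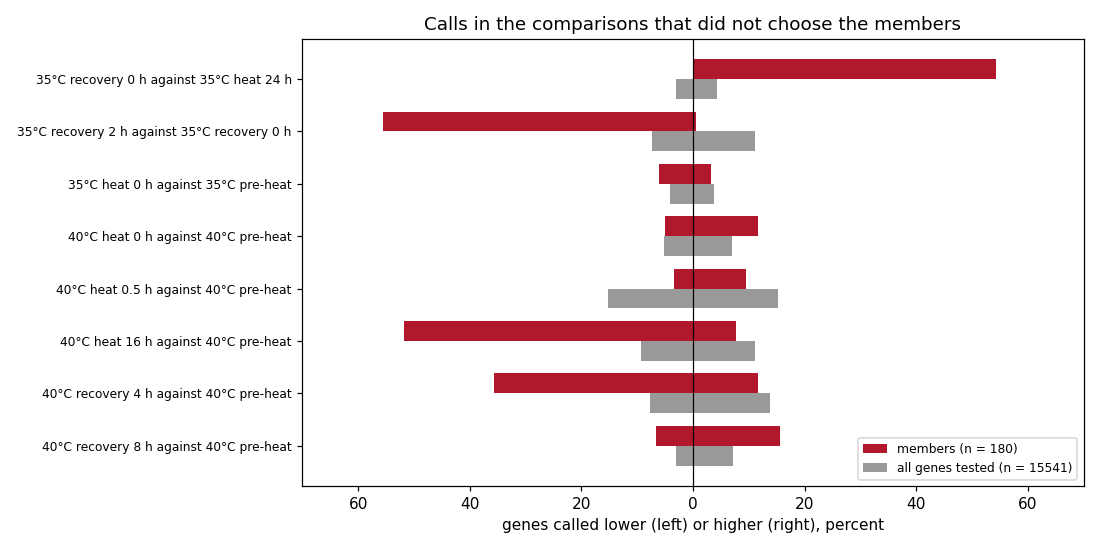
Percent of the 180 members (red) and of all 15541 genes tested (grey) called higher (right) or lower (left) in the 8 comparisons whose contrast the rule did not use. The 4 largest shares of members called over these 8 comparisons are in the 2 cooling steps at 35°C (54.4% higher, then 55.6% lower), at 40°C heat 16 h (51.7% lower) and at 40°C recovery 4 h (35.6% lower). The last 2 time points lie next to 40°C time points that the rule used, so their shares are not independent of the choice of members.

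Reaching the high temperature is a change in the other direction. At 40°C heat 0 h 21 members were called higher than pre-heat and 9 lower, 11.7% and 5% of the members, against 7% and 5.26% of all genes. With library size alone the split was 15 higher and 13 lower. At 35°C heat 0 h 6 were called higher and 11 lower, 3.33% and 6.11%, against 3.72% and 4.16% of all genes. These shares are near those of all genes, apart from the higher calls at 40°C. The change on reaching 40°C exceeded that on reaching 35°C in 11 members (6.11%) and was smaller in 2 (1.11%), against 2.9% and 1.68% of all genes by edgeR's test of the difference.

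Among members called, the largest rises at 40°C heat 0 h were those of Cre12.g505050 (2.76 ± 0.45), NRX3 (2.63 ± 0.46) and Cre04.g224800 (2.55 ± 0.35, SE, adjusted p 4.97e-07, 2.51e-06 and 9.73e-09 by edgeR). NRX3 had 1.99, 3.204 and 6.89 TPM at 40°C heat 0 h, against 0.638, 1.16 and 0.988 TPM at pre-heat, with replicate C the highest and no overlap. The largest falls among members called were those of Cre10.g435750 (-2.43 ± 0.79), Cre09.g410332 (-2.33 ± 0.64) and Cre13.g588950 (-1.87 ± 0.41). Cre10.g435750, the leading member, thus was low just after heating and high just after cooling. It had 0.244, 0.510 and 0.382 TPM at 40°C heat 0 h, against 1.08, 4.74 and 2.54 TPM at pre-heat (adjusted p = 0.00878 by edgeR), and its call was lost without pre-heat replicate B (adjusted p = 0.0755). At 35°C heat 0 h it also fell, to 0.261, 0.288 and 0.189 TPM, against 1.87, 4.19 and 4.74 TPM at pre-heat (-3.67 ± 0.86, adjusted p = 0.000467 by edgeR).

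HCP2 and Cre13.g588950 fell on heating at both temperatures. HCP2 had 4.01, 4.11 and 2.98 TPM at 40°C heat 0 h, against 15.0, 12.9 and 13.2 TPM at pre-heat (-1.47 ± 0.33, adjusted p = 0.000166 by edgeR), and 3.71, 2.99 and 4.14 TPM at 35°C heat 0 h, against 14.2, 13.2 and 15.4 TPM (-1.79 ± 0.33, adjusted p = 1.6e-05 by edgeR). In both treatments the groups were well apart. Among members called at 35°C heat 0 h, Cre09.g410332 (-3.28 ± 0.68) and Cre10.g432150 (-3.2 ± 0.56) fell most after Cre10.g435750, and rises were led by Cre13.g605200 (2.06 ± 0.45), Cre03.g201950 (1.69 ± 0.44) and Cre02.g095080 (1.68 ± 0.34).

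At 40°C heat 0.5 h 17 members were called higher and 6 lower, 9.44% and 3.33%, against 15.2% and 15.3% of all genes. With library size alone the split turned to 9 higher and 24 lower, and the median over all genes moved by -0.6 on the log2 scale, so the direction of the group at this time point depends on the scaling. RWP5 had the largest change, with 10.1, 5.32 and 2.01 TPM at heat 0.5 h, against 0.349, 0.729 and 0.576 TPM at pre-heat (4.10 ± 0.49, SE, adjusted p = 2.77e-11 by edgeR). Cre04.g224800 (3.36 ± 0.36) and NRX2 (2.84 ± 0.45) also rose. The largest falls among members called, of Cre09.g403600, Cre09.g389504 and Cre14.g631750, were -1.69, -1.65 and -1.63.

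Late in the heat at 40°C most of the members called were lower than before it. At heat 16 h 93 were called lower than pre-heat and 14 higher, 51.7% and 7.78%, against 9.24% and 11.2% of all genes, with a median of -2.34 over the members and 0.04 over all genes. The rule did not use heat 16 h, but it did use heat 24 h, which follows in the same treatment and had a similar median, so these counts are not independent of the choice of members. Of the 12 flagellar members 11 were called lower. RIB72 had 6.38, 10.4 and 7.20 TPM at heat 16 h, against 35.5, 38.4 and 35.2 TPM at pre-heat (-2.36 ± 0.22, SE, adjusted p = 2.21e-14 by edgeR). HYDG1 had 1.78, 4.98 and 1.38 TPM, against 20.9, 27.7 and 25.9 TPM (-3.44 ± 0.42, adjusted p = 1.85e-10 by edgeR). Of all 142 flagellar list genes 72 were called lower and 2 higher there. The largest falls among members called were those of Cre16.g692200 (-4.79 ± 0.41), Cre14.g632350 (-4.66 ± 0.48) and Cre14.g631750 (-4.64 ± 0.52).

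The 14 members called higher at heat 16 h included the nucleoredoxins, Cre12.g505050, Cre12.g505100, Cre04.g224800 and Cre03.g197150. At 40°C recovery 0 h this subset had a median of 5.71 log2 units above pre-heat, against 0.27 for the 93 called lower and 2.31 for the 73 not called. On cooling from 35°C 11 of the 14 were called higher, as were 58 of the 93 and 29 of the 73, with medians of 1.48, 1.18 and 1.66. After 2 h at 25°C 5 of the 14 were called lower at 35°C, as were 73 of the 93 called lower at heat 16 h and 22 of the 73 not called. Cre12.g505050 had 5.40, 9.24 and 9.73 TPM at 40°C heat 16 h, against 1.48, 2.27 and 1.33 TPM at pre-heat (2.12 ± 0.44, SE, adjusted p = 3.32e-05 by edgeR), and reached 148, 107 and 103 TPM at recovery 0 h. Its neighbour on chromosome 12, Cre12.g505100, had 38.9, 33.7 and 28.9 TPM at recovery 0 h, against 0.171, 0.487 and 0.260 TPM at pre-heat. These belong to the 10 members that lie next to another member in the RefSeq gene order, in 5 pairs that also include NRX2 and NRX3, Cre13.g568316 and Cre13.g568350, Cre13.g569400 and Cre13.g569450, and Cre16.g670755 and Cre16.g670756. Whether the gene models of these neighbours overlap was not analysed here. No share over all genes was computed for neighbours, so the pairs are listed as a description only.

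After the peak most members were low at 40°C recovery 2 h, which the rule used, with 133 at least 1 log2 unit below pre-heat. Recovery 4 h follows in the same treatment, so the counts there are not independent of the choice of members. At 40°C recovery 4 h 64 were called lower than pre-heat and 21 higher, 35.6% and 11.7%, against 7.73% and 13.8% of all genes, with a median of -1.51. The genes that had risen without falling lay on the other side, with 84 of 186 called higher (45.2%), 13 lower and a median of 1.02. The rule separated these sets at recovery 2 h, so this difference is not independent of it, and it was not tested. The largest falls among members called were those of Cre16.g692200 (-7.54 ± 0.5), Cre06.g254300 (-6.03 ± 0.4) and Cre10.g435750 (-5.91 ± 1). Cre06.g254300 had 0, 0.111 and 0.0311 TPM at recovery 4 h, against 1.41, 1.91 and 1.47 TPM at pre-heat. Cre16.g692200 was also at 0 in 1 library, so the sizes of both folds rest on counts near 0. The largest rises were those of Cre13.g589450 (3.98 ± 0.58), NRX2 (3.40 ± 0.46) and Cre03.g197150 (3.31 ± 0.4). NRX2 had 51.2, 70.3 and 62.1 TPM at recovery 4 h, so its drop after the peak was followed by a higher level than at recovery 2 h in each replicate.

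At 40°C recovery 8 h 28 members were called higher than pre-heat and 12 lower, 15.6% and 6.67%, against 7.18% and 3.02% of all genes, with a median of 0.01. Both directions were thus more frequent than over all genes, while the median was at pre-heat. Cre13.g569400 had 27.2, 22.6 and 20.5 TPM at recovery 8 h, against 0.618, 0.914 and 0.654 TPM at pre-heat (4.54 ± 0.64, SE, adjusted p = 3.54e-08 by edgeR). Its neighbour on chromosome 13, Cre13.g569450, had 3.80, 2.52 and 2.13 TPM, against 0.0942, 0.0802 and 0.112 TPM (4.40 ± 0.61). Cre06.g293100 rose by 4.28 ± 0.46. LCI35 was the member with the largest fall, with 0.561, 0.517 and 0.474 TPM, against 6.91, 4.77 and 5.66 TPM (-3.96 ± 0.36, adjusted p = 2.25e-14 by edgeR), followed by Cre02.g095087, a cysteine protease by annotation (-3.68 ± 0.43), and Cre16.g692200 (-3.17 ± 0.34). HYDG1 (-2.68 ± 0.4) and HCP2 (-2.49 ± 0.34) had not returned either. RIB72, with 65.4, 61.9 and 47.9 TPM, was not called (0.20 ± 0.21, adjusted p = 0.463 by edgeR).

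Members were found on every chromosome except 15 among the 17 of the RefSeq gene table. Their counted length relative to the median gene tested had a median of 1.27 (quartiles 0.822 and 1.8), against 1 (0.576 and 1.65) over all genes and 1.16 for the 186 genes that rose without the fall.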

How the data were processed

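RNA-seq of 90 libraries (30 groups of 3 replicates) was analysed. Reads were cleaned by the authors (BBDuk, BBMap), who aligned them by STAR to genome v5.6 so that a read with more than 1 locus was dropped and used HTSeq for read counts by gene. FastQC is also named in the submitters' notes. The sources used here do not give versions. The deposited table holds raw read counts of 17741 genes, and the deposited TPM values were computed by the authors for each library. Library sizes ran over 10872030 to 35917831 reads, and low genes carry the largest counting error.

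Counts were tested in edgeR 4.0.16 (R 4.3.3): TMM factors, 1 mean per group over the 90 libraries, trended dispersions and quasi-likelihood F-tests of 8 comparisons. A call needs a Benjamini-Hochberg adjusted p under 0.05, a log2 fold change above 1 in size, and group means at least 1 TPM apart. The change on heating at 40°C minus that at 35°C was a test added after the data were seen, judged by adjusted p and fold alone. The fit was tested on simulated data. Each SE is the log2 fold change divided by the root of F. The study's own tests used a mixed model on TPM. Labels call the replicates biological.

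The members and lists were chosen with earlier results of these data known. Genes named are the 12 members with the largest smaller step, the 20 with a symbol, up to 3 called in each direction per comparison, those nearest the threshold and those in a pathway list. Cre01.g009550, the flagellar members without a symbol and the neighbouring members were named after their values were seen. Names come from the study's annotation tables, and gene order from RefSeq v5.5, in which 17738 of 17741 IDs matched; no coordinates were used. Same-letter libraries of 35°C recovery 0 h and heat 24 h deviated together (correlations 0.18 to 0.6 across genes). Replicates B and C also did so across letters (0.25 and 0.23), so these values do not settle whether libraries pair by letter. An alternative treated same-letter libraries as pairs, with the letter as a replicate block. It gave 96 in place of 98 members called higher. Alternatives are other scalings, DESeq2 1.42.0, no filter, no TPM criterion, the block and leaving out each library, the last with the trended dispersions of all libraries kept.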

Additional observations from a re-analysis of the deposited data

Results flagged for a closer look

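The change on reaching 40°C (heat 0 h minus pre-heat) was set against the change on reaching 35°C, in the same model, for the members named at these steps. It differed in 3 of 10. These 10 were named for the largest changes called at these same steps in the same libraries, so the share and the sizes depend on that choice. Cre12.g505050 rose by 2.76 at 40°C and had -0.68 at 35°C, a difference of 3.45 ± 0.63 (SE, adjusted p = 0.000142 by edgeR). NRX3 had 2.63 and 0.26, a difference of 2.37 ± 0.67 (adjusted p = 0.0183 by edgeR). Cre04.g224800 had 2.55 and 0.64, a difference of 1.91 ± 0.49 (adjusted p = 0.0076 by edgeR). Over all members the change was larger at 40°C in 11 (6.11%) and smaller in 2 (1.11%), against 2.9% and 1.68% of all genes. Cre10.g435750, low at heat 0 h of both treatments, had a difference of 1.25 ± 1.13 that did not pass (adjusted p = 0.616 by edgeR).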

How the results depend on the processing

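All 8 counts of members called stayed within 1.5 times of their value with library size alone, DESeq2 size factors, DESeq2's Wald test, no low-count filter and the replicate block. With the replicate block 96, 100, 18, 30, 23, 107, 85 and 40 members were called, against 98, 101, 17, 30, 23, 107, 85 and 40 without it (35°C recovery 0 h, recovery 2 h and heat 0 h, then 40°C heat 0, 0.5 and 16 h and recovery 4 and 8 h). Without the TPM criterion the counts moved to 33 at 35°C heat 0 h, 56 at 40°C heat 0 h, 41 at heat 0.5 h and 144 at recovery 4 h, since a difference of 1 TPM is then not required. Leaving out 1 library gave 77 to 103, 93 to 104, 15 to 19, 24 to 33, 20 to 27, 102 to 109, 79 to 89 and 36 to 42 in the same order. The rule chose 92 genes with library size alone, 22 on log2(TPM + 1), which also leaves out the TMM factors, 393 at a threshold of 2 and 87 at 3, all of the first 2 and the last among the 180, and all 180 among the 393; leaving out 1 of its 9 libraries gave 141 to 262. Of 202 calls of 53 named genes, 164 held in each setting run, 38 were lost in at least 1 and 0 reversed; replicate letters correlated over 0.1 in every pair only for 35°C recovery 0 h against heat 24 h. Depth limits the 21 members under 1 TPM at the peak most.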
